A study of Mus musculus with 6 samples.

Results

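The metallothionein cluster of the mouse was read here through the open chromatin of astrocytes with and without the glucocorticoid receptor (GR). Its 4 genes, *Mt4*, *Mt3*, *Mt2* and *Mt1*, lie in that order on the plus strand of chromosome 8. In mm10 with the GENCODE vM21 genes, *Mt4* spans chr8:94137197-94139031, *Mt3* chr8:94152607-94154146, *Mt2* chr8:94172664-94173568 and *Mt1* chr8:94179082-94180327. Every ATAC-seq peak with its summit in one of these genes or within 50 kb of one was taken, in each of 6 libraries, and was assigned to the nearest metallothionein transcription start site (TSS). The 6 peak lists held between 40 and 52 such peaks, out of 179462 to 198929 peaks in a list. Peaks whose summits fell together were joined into sites of 401 bp, kept when at least 2 libraries had a peak there, which gave 37 sites of the cluster out of 160877 sites in the genome.

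Nuclei came from primary visual cortex (V1) at postnatal day 21 (P21). All mice were GRfl/fl and had been injected at P0 to P1 with an AAV2/5 vector whose promoter, GfaABC1D, is active in astrocytes. In GR-KO mice it drove Cre, which removes the floxed GR segment, joined through T2A to EGFP-KASH, a green label of the nuclear envelope, with 4x6T at the end. In GR-con mice the inactive ΔCre took the place of Cre and all else was the same, so that the controls share the floxed allele, the injection and the label. Each condition had 3 libraries, each made from 50000 sorted DRAQ5+/GFP+ nuclei pooled from 3 to 4 mice. The p-values rest on the spread between such pools, which limma draws towards that of other sites of like level. A loss in some nuclei and a smaller loss in every nucleus cannot be told apart in these bulk libraries.

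Metallothioneins are small cysteine-rich proteins that bind zinc and copper and buffer free metal ions. *Mt1* and *Mt2* are expressed in most tissues and, in brain, chiefly in astrocytes. Their promoters hold metal response elements, bound by the zinc-sensing factor MTF1, and both genes are long known as targets of glucocorticoid hormones acting through GR. *Mt3* is the brain-enriched member, also called growth inhibitory factor, and *Mt4* is known from stratified squamous epithelium. GR bound to hormone sits on DNA as a dimer, and its classic site is an imperfect palindrome.

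The sequences that the results turn on are given first, all from the plus strand and 5′ to 3′. The promoters are from RefSeq (GRCm38.p6, the assembly of mm10) and hold the 250 bases before the RefSeq start. All 4 genes had an entry. Capitals mark the core of the metal response element, TGCACNC or TGCGCNC on either strand, so that a core on the minus strand is printed as its reverse complement. The promoter of *Mt2* (chr8:94172368-94172617) held 3 cores, that of *Mt1* (chr8:94178839-94179088) held 1, and that of *Mt3* (chr8:94152357-94152606) held none. These counts cover the printed bases alone. More cores lie just past their ends, from chr8:94172622 at *Mt2*, chr8:94179091 at *Mt1* and chr8:94152634 at *Mt3*, and are counted with the sites below. That of *Mt4* (chr8:94136954-94137203), which had no site, held 1 and is not printed. The other promoters are shown because the site at each of these starts was open in every library.

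Mt2 promoter: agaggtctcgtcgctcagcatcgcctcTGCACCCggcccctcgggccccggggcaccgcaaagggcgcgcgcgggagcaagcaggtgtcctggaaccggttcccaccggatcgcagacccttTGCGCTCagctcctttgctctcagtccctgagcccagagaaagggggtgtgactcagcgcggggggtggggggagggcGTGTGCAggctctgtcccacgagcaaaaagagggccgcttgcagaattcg
Mt1 promoter: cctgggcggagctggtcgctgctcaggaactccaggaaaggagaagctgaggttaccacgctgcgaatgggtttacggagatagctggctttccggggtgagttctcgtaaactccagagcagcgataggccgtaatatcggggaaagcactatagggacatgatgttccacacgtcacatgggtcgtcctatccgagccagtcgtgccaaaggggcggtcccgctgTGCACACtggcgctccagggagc
Mt3 promoter: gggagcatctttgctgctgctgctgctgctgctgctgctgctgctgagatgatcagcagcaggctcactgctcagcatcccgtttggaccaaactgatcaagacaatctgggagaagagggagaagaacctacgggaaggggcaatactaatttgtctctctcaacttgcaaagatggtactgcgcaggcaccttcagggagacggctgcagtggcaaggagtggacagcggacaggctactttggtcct

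At least 1 core was present in 21.4% of 32851 RefSeq promoters of this length and at least 3 cores in 1.26%. The promoter of *Mt1* also held the GR palindrome, searched on either strand as GNACA and TGTNC with any 3 bases between them, as ggacatgatgttc at chr8:94178995-94179007. That palindrome was present in 0.387% of the promoters.

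A pair of sites outside the promoters is shown for how the conditions differed there. The first lies 1134 bp upstream of the *Mt2* TSS and was the single site of the cluster where all GR-con libraries had a peak and all GR-KO libraries lacked one, which held for 1.15% of all sites. The second lies 10403 bp downstream of the *Mt1* TSS and was the single site called by rank, lower by −log10 p, as were 0.835% of all sites. The 151 bases around each centre are printed from GRCm38.p6, with the GR palindrome in capitals. It occurs in the first (chr8:94171455-94171605) and in the second (chr8:94189410-94189560) these letters were not found.

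Mt2 upstream site: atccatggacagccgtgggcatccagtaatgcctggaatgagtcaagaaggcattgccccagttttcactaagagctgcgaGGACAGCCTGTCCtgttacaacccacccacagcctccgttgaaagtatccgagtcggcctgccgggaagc
Mt1 downstream site: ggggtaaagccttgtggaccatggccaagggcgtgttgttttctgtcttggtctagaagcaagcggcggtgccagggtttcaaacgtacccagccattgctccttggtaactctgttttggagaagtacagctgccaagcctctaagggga

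Each list gives every peak a fold, which divides the coverage at its summit by the background around it, and the −log10 of a p-value. The p is that of a Poisson count, so the fold and the p together fix both the summit coverage (the number of extended read ends over the summit base) and the local background, which the caller takes over 10 kb by default. Both were solved for every peak. In each library 100.0% of the peaks matched the deposited −log10 p within 0.01 or, for strong peaks, within a very small share of its value. The lowest local background of a library, at which 30.6 to 35.6% of its peaks sat, was 4.29, 4.32 and 4.92 in GR-con and 4.54, 4.28 and 4.34 in GR-KO libraries 1, 2 and 3, and it served as one scale between libraries. No read counts were used, so the depth of the libraries is not known from other sources. In the text below, values are given for libraries 1, 2 and 3 of GR-con and then of GR-KO, and a score is the normal score of a site's rank within its library, so that a difference of 1 is 1 SD of all sites. Differences are GR-KO minus GR-con, with their standard error (SE).

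The deleted gene, *Nr3c1*, held 17 sites. By −log10 p (limma) 1 was called lower, against 0.835% of all sites, and 1 higher, against 0.760%. The score difference was above 0 at 11 of them and below 0 at 6, against 48.8% of all sites below 0. The site called lower showed folds of 17.4, 17.4 and 14.3 in the GR-con libraries and of 6.68, 4.73 and 6.36 in the GR-KO libraries. Whether it lies in the floxed segment was not examined here, so these sites are no check of the deletion. Among astrocyte genes, *Slc1a2*, *Slc1a3*, *Gja1* and *Gfap* had a peak within 1 kb of the TSS in every library, at fold percentiles of 51.3 to 74.5, and *Aqp4* and *Aldh1l1* had none in any. Of the neuronal genes *Snap25* had a peak at percentile 94.3 or above in every library and *Gad1* had none. The median percentile of the markers with a peak was 52.3 to 70.1 in GR-con and 31.8 to 66.1 in GR-KO libraries for 5 neuronal genes, 56.8 to 63.7 and 41.4 to 65.5 for 4 oligodendrocyte lineage genes, 48.5 to 79.7 and 57.6 to 74.3 for 3 microglial genes, and 38.9 to 44.9 and 32.8 to 45.8 for 3 endothelial genes. The part of other cell types in the values of the cluster was not tested.

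**Figure D1:**
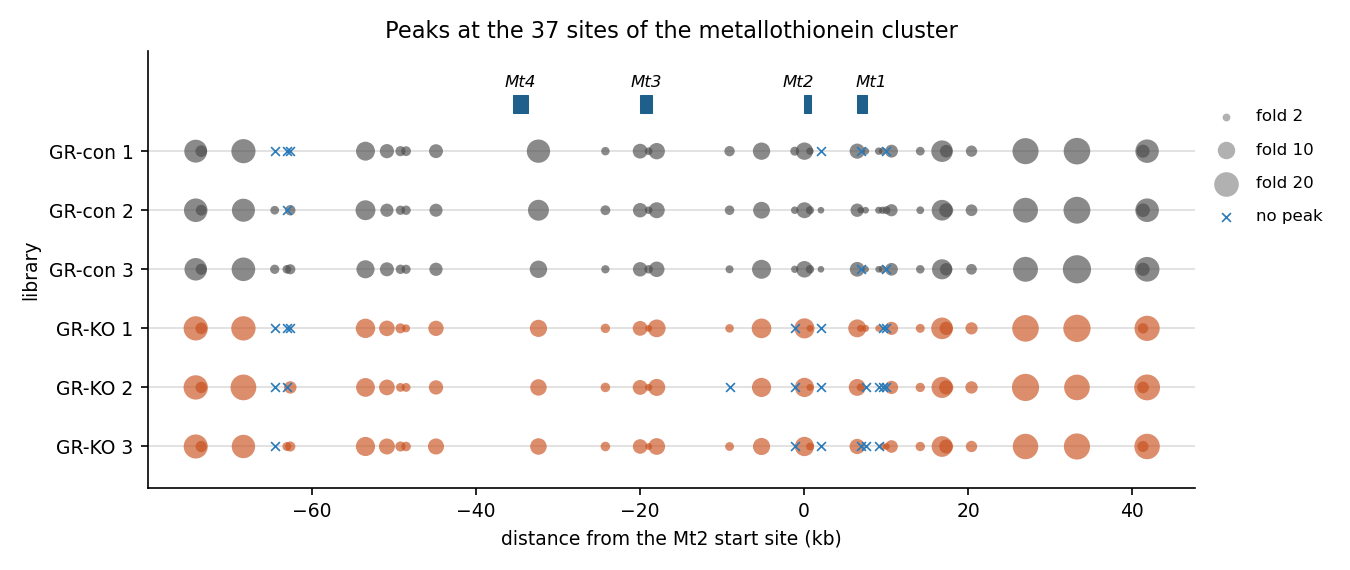
Peaks of the 6 libraries (rows) at the 37 sites, by distance from the *Mt2* TSS in kb; the area of a circle is proportional to the fold, a cross marks a library with no peak, and boxes mark the 4 genes. Most crosses lie from just upstream of *Mt2* to 10 kb downstream of it, and most are in the GR-KO rows.

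The cluster held 42, 51 and 52 peaks in GR-con and 42, 40 and 41 in GR-KO libraries. The groups touched at 42, and their means were 48.3 ± 5.51 (SD, n = 3) and 41.0 ± 1.00 (SD, n = 3). These peaks made up 0.0227%, 0.0276% and 0.0261% of the GR-con lists and 0.0234%, 0.0217% and 0.0223% of the GR-KO lists. By nearest metallothionein TSS, *Mt1* had 17, 21 and 18 peaks in GR-con against 17, 14 and 15 in GR-KO libraries, and *Mt2* had 7, 9 and 9 against 6, 6 and 7. *Mt3* had 5 peaks in every GR-con library and 5, 4 and 4 in GR-KO libraries, and *Mt4* had 13, 16 and 20 against 14, 16 and 15. Of the 37 sites, 27 lay between genes and 10 in an exon or a UTR. For 17 of the 37 a metallothionein TSS was the nearest of any gene. The others were nearest to *Bbs2* and *Nup93*, which flank the cluster, or to the noncoding genes *Gm45774*, antisense over *Mt2*, and *Gm39228*, downstream of *Mt1*.

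All 6 libraries had a peak at 26 of the 37 sites (70.3%, against 62.0% of all sites). Peaks were present in more GR-con than GR-KO libraries at 7 sites (18.9%, against 16.0% of all sites) and in more GR-KO than GR-con libraries at 1 site (2.70%, against 11.5%). The 1 site with peaks in all of the GR-con and none of the GR-KO libraries was 2.70% of the cluster's sites, against 1.15% of all sites, and no site showed the reverse, against 0.618%. The 11 sites that lacked a peak in some library had folds of 1.29 to 5.11, and 7 of them lay between the site 1134 bp upstream of *Mt2* and the site 3619 bp downstream of *Mt1*.

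The site 1134 bp upstream of *Mt2* (chr8:94171330-94171730) lies in an exon of *Gm45774*, whose transcript runs against *Mt2*. Its fold was 2.69, 1.89 and 1.79 in GR-con libraries, and no GR-KO library had a peak there. The −log10 p was 27.2, 10.9 and 8.28, and the summit coverage was 159, 128 and 110 over a local background of 58.4, 67.2 and 60.9. It was a weak peak, at percentile 14.7, 1.44 and 1.12 of the fold and 59.4, 37.7 and 32.2 of the −log10 p in its lists. With the missing peaks ranked lowest, its score by −log10 p was lower in GR-KO (difference −1.22, SE 0.310, limma adjusted p = 0.0545; 0.0469 to 0.523 over 12 alternatives), and by fold the difference was −0.44 (SE 0.230, adjusted p = 0.471). Neither passed the threshold of 0.05, and with the strongest peak covering the site in place of one with its summit there the first was −0.62 (adjusted p = 0.523). The palindrome ggacagcctgtcc spans chr8:94171536-94171548, at 12 bp from the centre of the site, and the AP-1 letters tgagtca lie at −34 bp.

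The GR palindrome was present at 3 of the 37 sites (8.11%, against 1.01% of all sites, within 200 bp of the centre). Besides the site upstream of *Mt2*, these were the *Mt1* promoter, where it lies at −140 bp from the centre, and a site 2057 bp downstream of *Mt2* (chr8:94174521-94174921), where it reads gcacaatgtgtcc. That last site lies between genes and had a weak peak in GR-con libraries 2 and 3, with folds of 1.47 and 1.44, and none in GR-con 1 or in any GR-KO library. Its score by −log10 p differed by −0.35 (SE 0.295, adjusted p = 0.654). A site needed a peak in 2 libraries to be kept, so those without a GR-KO peak were kept through GR-con libraries alone.

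The core of the metal response element was found at 12 of the 37 sites (32.4%, against 26.4%). Within 200 bp of the centre, 5 cores lay at the *Mt2* TSS, 5 at the *Mt1* TSS, 3 at the *Mt3* TSS and 7 at the start of *Gm39228*, where a match on each strand can overlap. AP-1, searched as TGANTCA, was present at 7 sites (18.9%, against 11.4%) and the E-box CACGTG at 5 (13.5%, against 6.21%). The palindrome of nuclear factor I, searched as TTGGC and GCCAA with any 5 bases between them, was found at none, against 0.0845% of all sites. With letters this rare, their absence from 37 sites says little, and TTGGC or GCCAA alone was not searched. An AP-1 match and an E-box overlapped at the site 4162 bp upstream of *Mt3*.

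The promoters of *Mt2* and *Mt1* kept a peak in every GR-KO library. At both, the fold of every GR-KO library lay above that of every GR-con library, and neither difference passed the test over all sites. At the *Mt2* TSS (chr8:94172511-94172911, 47 bp into the gene, in its UTR and in an exon of *Gm45774*) the fold was 9.92, 8.36 and 9.02 in GR-con and 13.3, 12.2 and 12.3 in GR-KO libraries. Such an order held at 7.78% of the sites with a peak in all 6 libraries. The −log10 p was 329, 288 and 293 against 392, 344 and 377, again without overlap. In rank, the site stood at percentile 70.8 to 76.9 of the fold in GR-con and 82.8 to 84.7 in GR-KO lists. Its score differed by 0.33 by fold (SE 0.0703, limma adjusted p = 0.110; 0.0926 to 0.279 over 14 alternatives) and by 0.20 by −log10 p (SE 0.0667, adjusted p = 0.166), so that neither was called over all sites.

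The summit coverage of the *Mt2* promoter did not separate the groups, with 533, 523 and 505 in GR-con and 532, 491 and 536 in GR-KO libraries. The local background did not overlap. It was 52.8, 61.7 and 55.1 in GR-con and 39.1, 39.4 and 42.7 in GR-KO libraries. Over the lowest background of each library, GR-KO stood at 1.02 times GR-con for the coverage and at 0.731 times for the local background (log2 difference −0.45, limma adjusted p = 0.133 over all sites and 5.7e-06 over those above the lowest background). The fold is by its construction the coverage over the local background, each plus 1.

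The *Mt1* promoter (chr8:94178941-94179341, 59 bp into the gene, in its UTR) showed the same order. Its fold was 7.59, 5.88 and 7.17 in GR-con and 10.6, 9.42 and 7.70 in GR-KO libraries, without overlap, and its −log10 p of 292, 238 and 288 against 373, 327 and 240 did overlap. The score by fold differed by 0.28 (SE 0.101, limma adjusted p = 0.313) and that by −log10 p by 0.12 (SE 0.0777, adjusted p = 0.543). The latter was 0.058 without GR-con 2, 0.046 without GR-KO 1 and 0.208 without GR-KO 3. The summit coverage was 571, 571 and 587 against 580, 548 and 462, and GR-KO 3 was the lowest. The local background was 74.4, 96.3 and 81.1 in GR-con and 53.8, 57.3 and 59.1 in GR-KO libraries, a ratio of 0.692 over the lowest background (log2 difference −0.52, limma adjusted p = 0.178 and 1.5e-06 in the same 2 fits) and the lowest ratio among the 26 sites where it could be formed.

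At the *Mt3* promoter the groups overlapped in fold. Its site (chr8:94152480-94152880, 73 bp into the gene, in its UTR) had folds of 7.21, 6.88 and 6.88 in GR-con and 7.25, 7.28 and 7.0 in GR-KO libraries. The −log10 p of 237, 231 and 224 against 216, 219 and 202 was higher in every GR-con library, and the score differed by −0.038 (SE 0.0551, adjusted p = 0.830). Its summit coverage of 479, 484 and 469 against 434, 439 and 418 overlapped once set over the lowest background, with a ratio of 0.922. Within *Mt3*, a weak site in its exon 1109 bp from the TSS had folds of 1.97, 1.94 and 2.41 against 1.59, 1.70 and 1.56. All GR-con libraries were above all GR-KO libraries there, yet the score by fold differed by 0.0032 (SE 0.221, adjusted p = 0.998). Folds this low rank just above the sites without a peak, which are tied lowest, so a fall moves this score little. By −log10 p it differed by −0.53 (SE 0.235, limma adjusted p = 0.336). A strong site 2097 bp from the *Mt3* TSS, past the end of the gene, had folds of 8.81, 8.42 and 7.92 against 10.4, 9.59 and 9.21, higher in every GR-KO library (limma adjusted p = 0.402).

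*Mt4* had no site at its promoter. The site nearest its TSS lies 3087 bp downstream (chr8:94140084-94140484), between *Mt4* and *Mt3*, and there the GR-con libraries were the higher ones. Its fold was 17.9, 14.4 and 10.0 in GR-con and 9.75, 8.90 and 8.98 in GR-KO libraries, and its −log10 p was 118, 77.8 and 48.3 against 37.8, 31.5 and 32.3. Neither measure overlapped, although GR-con 3 was close to the GR-KO libraries in fold. The summit coverage was 128, 92 and 69 against 53, 46 and 47, a ratio of 0.510 over the lowest background. The score differed by −0.40 by fold (SE 0.134, limma adjusted p = 0.286) and by −0.36 by −log10 p (SE 0.0978, adjusted p = 0.0794; 0.00355 to 0.402 over 14 alternatives). Coverage gave a call, with a log2 difference of −0.91 by the lowest background (SE 0.197, limma adjusted p = 0.000321) and of −0.81 by the median over sites (adjusted p = 0.00365). These calls rested on GR-con 1. Without it the coverage differed by −0.64 (adjusted p = 0.108) and −0.57 (adjusted p = 0.142), and the score by fold by −0.25, against −0.40 with all libraries.

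**Figure D2:**
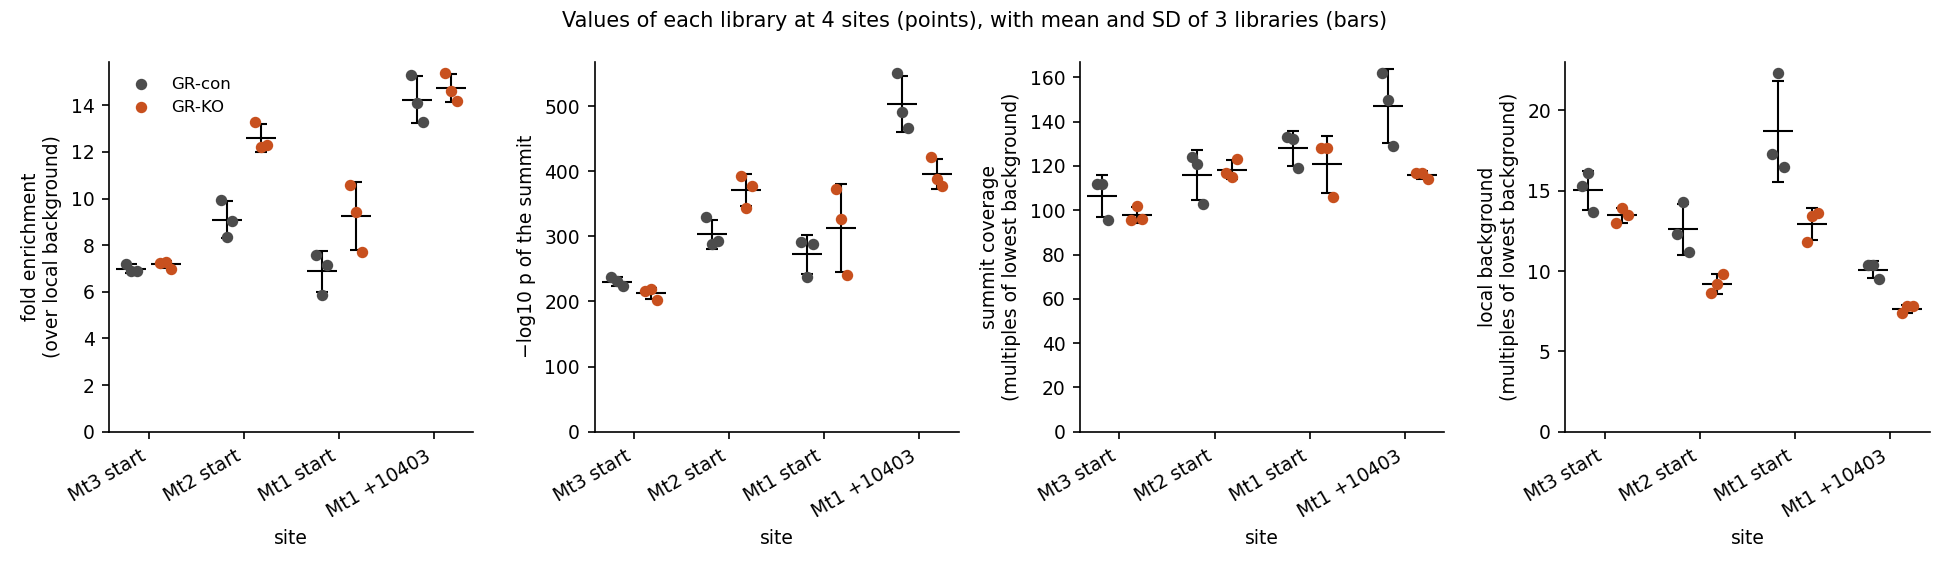
Fold, −log10 p, summit coverage and local background (coverage and background in multiples of the lowest local background of the library) at the starts of *Mt3*, *Mt2* and *Mt1* and at the site 10403 bp downstream of *Mt1*; points are single libraries, and bars give the mean and SD of 3 libraries. At the *Mt2* and *Mt1* starts the local background of every GR-KO library lies under that of every GR-con library, while the coverage overlaps.

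The site 10403 bp downstream of *Mt1* (chr8:94189285-94189685), between genes, was the one site called by rank. It was strong in every library, with folds of 15.3, 14.1 and 13.3 in GR-con and 15.4, 14.6 and 14.2 in GR-KO libraries, and the fold overlapped. Its −log10 p was 551, 491 and 467 in GR-con and 422, 388 and 378 in GR-KO libraries, without overlap, which placed it at percentile 98.9 to 99.5 and 97.4 to 97.7 of the lists. The score by −log10 p fell by 0.42 (SE 0.0890, limma adjusted p = 0.0186; 0.00305 to 0.211 over 14 alternatives). The call was lost in each of the 6 fits that left out 1 library, with adjusted p from 0.0851 to 0.144, in the fit without the variance trend (adjusted p = 0.211), with the replicate block (adjusted p = 0.0536), and where a library's value was that of its strongest covering peak (adjusted p = 0.129).

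At that site both parts of the fold were lower in every GR-KO library, and their ratio, the fold, overlapped. The summit coverage was 697, 647 and 635 against 529, 500 and 494, a ratio of 0.786 over the lowest background. The local background was 44.7, 44.9 and 46.7 against 33.5, 33.4 and 33.9, a ratio of 0.758. The log2 difference of the coverage was −0.34 by the lowest background (SE 0.114, adjusted p = 0.0488) and −0.25 by the median (adjusted p = 0.0579), on either side of the threshold. The first was lost in each fit that left out 1 library (adjusted p from 0.153 to 0.328) but for that without GR-con 3. None of the 5 motifs, each searched by its full letters, was found within 200 bp of its centre.

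Over all 37 sites, none was called by rank of fold, lower or higher, against 0.127% lower and 0.0609% higher of all sites. At weak sites this score can hardly fall, since sites without a peak are tied lowest. The lack of any GR-KO peak 1134 bp upstream of *Mt2* gave a difference of −0.44, so this ranking cannot decide on losses at such sites. At an unadjusted p under 0.05 from limma, 2 were lower (5.41%, against 6.02% of all sites) and 7 higher (18.9%, against 6.12%). By rank of −log10 p, 1 was lower (2.70%, against 0.835%) and 0 higher (against 0.760%), and at an unadjusted p under 0.05 these were 7 (18.9%, against 6.37%) and 4 (10.8%, against 6.98%). The score difference by fold was above 0 at 26 sites and below 0 at 11 (29.7%, against 46.7% of all sites), with a median of 0.093 against 0.017 over all sites. By −log10 p it was above 0 at 17 and below 0 at 20 (54.1%, against 48.8%), with a median of −0.038 against 0.0057.

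**Figure D3:**
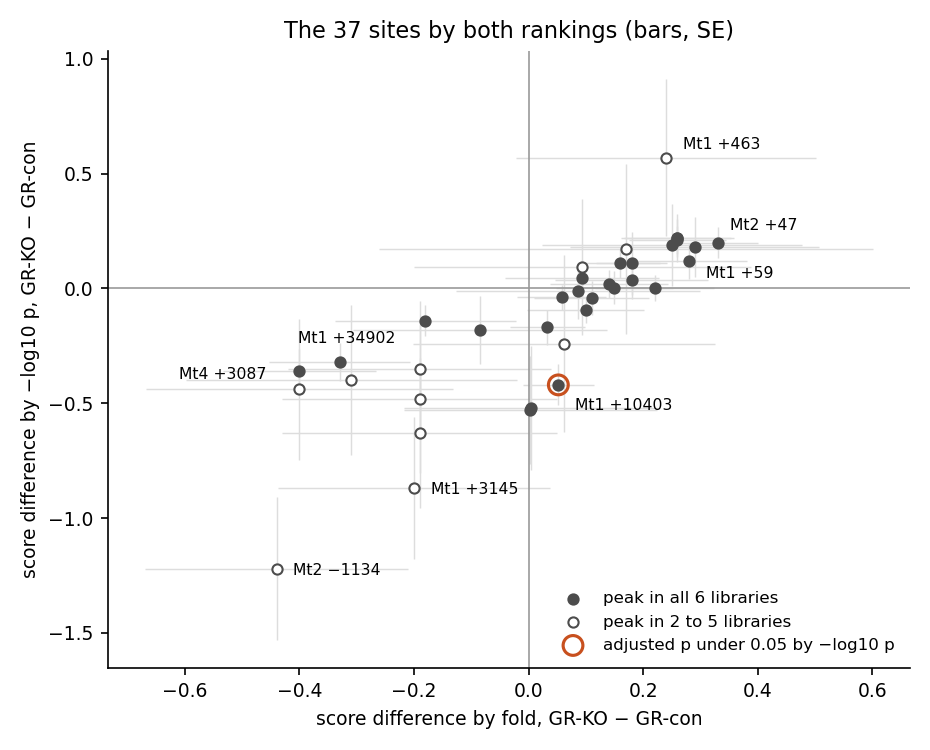
Score difference, GR-KO minus GR-con, of each of the 37 sites by fold (x axis) and by −log10 p (y axis), with standard errors; filled points had a peak in all 6 libraries, and the ring marks the site called by −log10 p. The *Mt2* and *Mt1* starts lie in the upper right, and the upstream *Mt2* site lies lowest, at −0.44 and −1.22.

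Among the 26 sites with a peak in all 6 libraries, the fold was higher in every GR-KO than in every GR-con library at 8 (30.8%, against 7.78% of such sites in the genome) and lower at 3 (11.5%, against 10.3%). By −log10 p, 7 sites were higher in every GR-con library (26.9%, against 14.6%) and 4 were higher in every GR-KO library (15.4%, against 6.76%). Summit coverage over the lowest background was higher in every GR-con library at 7 sites (26.9%, against 13.7%) and in every GR-KO library at 1 (3.85%, against 7.23%).

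Scaled by the lowest background, the coverage of 6 of the 26 sites was called lower in GR-KO (23.1%, against 3.94%) and of none higher (against 1.97%). At an unadjusted p under 0.05 these were 7 (26.9%, against 11.6%) and 0 (against 5.75%). Scaled by the median over sites, 4 were called lower (15.4%, against 2.63%) and 1 higher (3.85%, against 4.69%), with 6 (23.1%, against 7.19%) and 3 (11.5%, against 13.4%) at an unadjusted p under 0.05. The 6 sites called by the lowest background were those 3087 bp downstream of *Mt4*, 1109 bp into *Mt3*, 719 bp into *Mt2*, 4241 and 10403 bp downstream of *Mt1* and 580 bp upstream of *Nup93*. With 1 library left out, 2 to 6 sites were called lower by the lowest background, with 2 without GR-con 2 or GR-KO 1 and 3 without GR-con 1 or GR-KO 3. By the median 1 to 5 were, with 1 without GR-con 1 or GR-con 2 and 2 without GR-KO 1, and the 1 higher site was called in the fit without GR-con 3 alone. The call 4241 bp downstream of *Mt1* (adjusted p = 0.0373) was lost in 5 of these 6 fits (adjusted p from 0.0583 to 0.243) and kept without GR-con 3. That 1109 bp into *Mt3* (adjusted p = 0.0150, and 0.0428 by the median) was kept by the lowest background without GR-con 1 or GR-KO 2 and lost in the other fits (adjusted p from 0.0519 to 0.0731), and by the median it was lost in all 6 (adjusted p from 0.0591 to 0.199). The median log2 difference of the 26 was −0.18 by the lowest background and −0.088 by the median, against −0.050 and 0.045 over all such sites; the scalings differ by 1 constant for every site.

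The site 719 bp into *Mt2* (chr8:94173183-94173583), near the 3′ end of the gene and at the start of *Gm45774*, was weak in fold, at 1.80, 2.23 and 2.37 against 1.52, 1.56 and 1.99. Its summit coverage was 93, 136 and 129 against 58, 60 and 83, a ratio of 0.578, and its log2 difference of −0.80 by the lowest background was called (SE 0.172, limma adjusted p = 0.000283), also with each library left out in turn (adjusted p from 8.1e-05 to 0.0305). By the median it was −0.70 (adjusted p = 0.00328), and that call was lost without GR-con 2 (−0.58, adjusted p = 0.0583). By rank it was not (adjusted p = 0.997 by fold and 0.420 by −log10 p). At the start of the noncoding *Gm39228* (chr8:94183123-94183523), which held 7 cores of the metal response element, the fold overlapped at 5.49, 4.91 and 5.31 against 5.72, 5.81 and 5.28. The −log10 p of 155, 155 and 157 against 127, 137 and 118 did not overlap (adjusted p = 0.505 by rank), and the coverage ratio was 0.777.

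Several low sites lie between the *Mt1* TSS and *Gm39228*. Those 1077, 2681 and 3145 bp downstream of the *Mt1* TSS each had a peak in all GR-con libraries and in 1 of GR-KO. The last of them had folds of 1.77, 1.76 and 1.88 in GR-con and of 1.55 in GR-KO 3 alone, and its score by −log10 p differed by −0.87 (SE 0.310, limma adjusted p = 0.199), and by −0.32 with the strongest covering peak (adjusted p = 0.697). A site 463 bp into *Mt1* had a peak in GR-con 2 and in GR-KO 1 and 2 (adjusted p = 0.493 by −log10 p).

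The local background, which these sites share over several kb, was lower in GR-KO libraries along most of the cluster, with the lowest ratios around *Mt2* and *Mt1*. With each library called alone, it was not kept apart from the reads of the peaks themselves. Its log2 difference over the lowest background, a measure chosen after the values had been seen, was below 0 at 26 of 26 sites. Every GR-con library was above every GR-KO library at 18 of them (69.2%, against 15.3%) and the reverse held at 0 (against 5.61%). Where a library sits at its lowest background, its value here is fixed at 0 by construction. The 25 sites above it by more than 0.01 of its value in all 6 libraries were therefore set against the 64493 such sites of the genome. The difference was below 0 at 25 of the 25 (100%, against 61.7%), with a median of −0.21 against −0.035. The groups were in that order without overlap at 17 (68.0%, against 19.1%) and in the reverse order at 0 (against 7.73%). The calls depended on which sites entered the fit. Over all 99772 sites 2 of 26 were called lower (7.69%, against 1.58%), those 10403 and 10909 bp downstream of *Mt1* (adjusted p = 0.0410 and 0.0417 from limma), and none higher (against 0.511%). That count was 8 without GR-con 3, 1 without GR-con 1 and 0 in each other fit that left out a library. In the fit of the sites above the lowest background 11 of 25 were called lower (44.0%, against 10.4%) and none higher (against 3.59%), with the *Mt2* and *Mt1* promoters among them. At an unadjusted p under 0.05, 17 of 26 were lower (65.4%, against 11.8%) in the first fit and 15 of 25 (60.0%, against 17.8%) in the second, with 0 higher in both (against 4.40% and 6.70%). Since neighbouring sites draw on the same reads, these sites are not separate measurements. The SE of the scaled fits also leans on other sites. For the background of the *Mt1* promoter it was 0.147 in the first fit and 0.0948 in the second. For coverage by the lowest background it was 0.114 at both the *Mt1* and the *Mt2* promoter. Their adjusted p therefore does not rest on the 6 libraries at that site alone.

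By position, 9 sites from 5186 bp upstream of *Mt2* to 13995 bp downstream of *Mt1*, a stretch of 25.6 kb picked after its values were seen, had GR-KO to GR-con ratios of 0.692 to 0.768 with a median of 0.731. The other 17 sites ranged from 0.764 to 0.985 with a median of 0.894. By nearest gene the median was 0.876 for *Mt4*, 0.895 for *Mt3*, 0.731 for *Mt2* and 0.758 for *Mt1*. At the *Nup93* end it returned to near 1, with 0.985 and 0.980 at the last 2 sites.

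**Figure D4:**
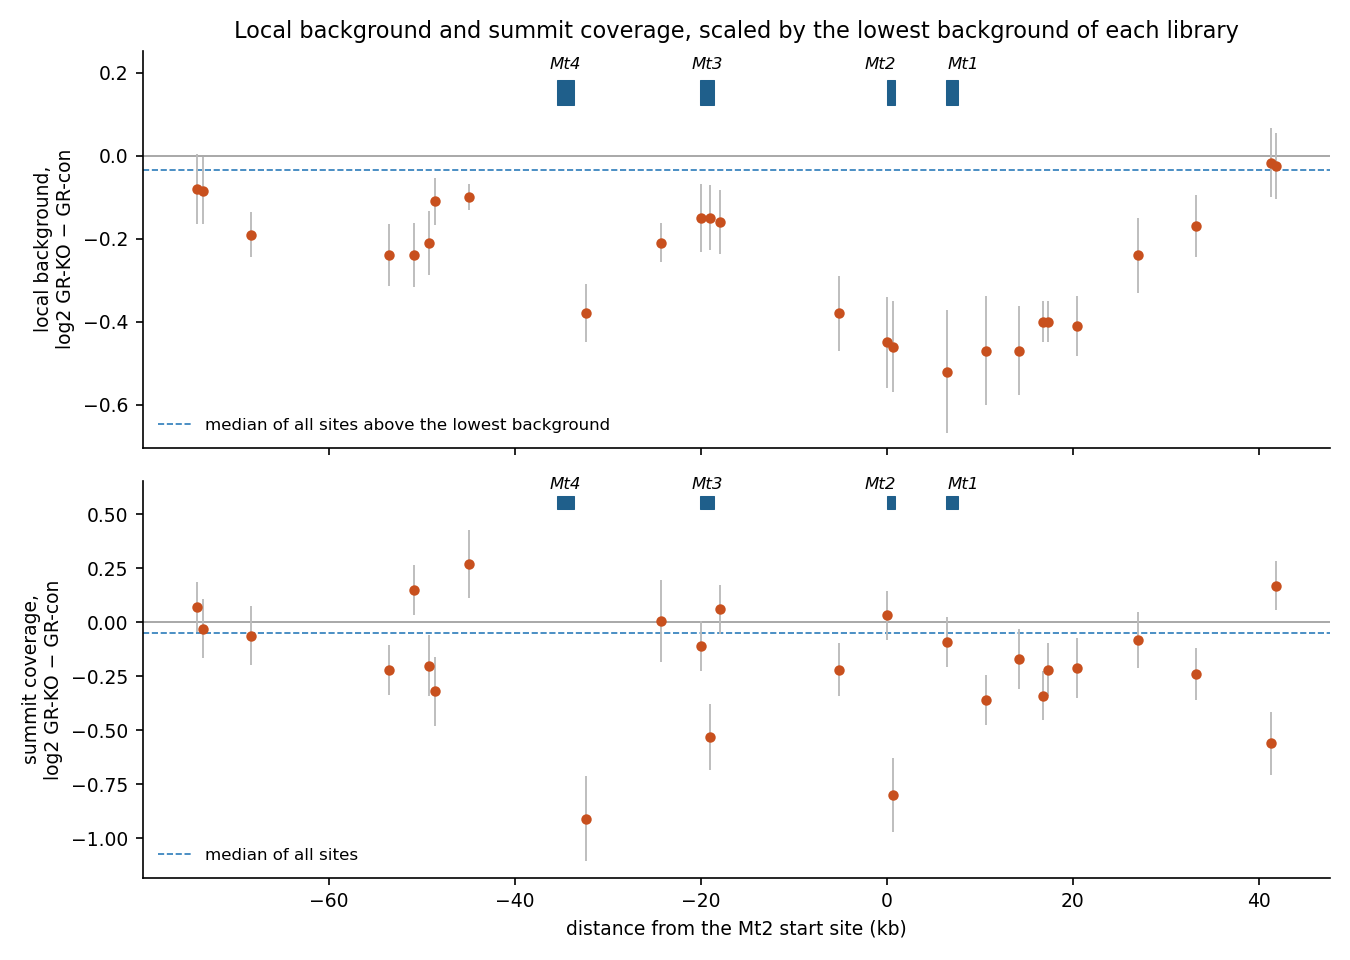
Log2 difference, GR-KO minus GR-con, of the local background (top) and of the summit coverage (bottom), both over the lowest background of each library, at the 26 sites with a peak in all 6 libraries, by distance from the *Mt2* TSS in kb; bars are standard errors, the dashed line is the median of all such sites (top: of those above the lowest background) and boxes mark the genes. The background dips from the region of *Mt2* to downstream of *Mt1*, down to a ratio of 0.692, and returns to the genome median at the right end.

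At the edges of the cluster, the site 421 bp into *Bbs2*, in its UTR (chr8:94098307-94098707), had folds of 17.3, 18.3 and 16.7 in GR-con and 19.4, 19.5 and 19.1 in GR-KO libraries. These did not overlap, and the score difference of 0.18 was not called (SE 0.0625, limma adjusted p = 0.304). The site nearer the *Bbs2* TSS, 245 bp before it and between genes, had folds of 4.46, 3.88 and 4.12 against 4.46, 4.27 and 4.16, which overlap (adjusted p = 0.845). *Bbs2* encodes a subunit of the BBSome of the cilium. Upstream of *Mt4*, the site at 15385 bp had folds of 6.65, 5.73 and 6.47 against 8.01, 8.13 and 8.44, and that at 9402 bp had 6.38, 5.63 and 5.79 against 7.70, 6.74 and 8.53. Both were higher in every GR-KO library, with adjusted p of 0.253 and 0.325 by fold and 0.0975 and 0.226 by −log10 p. The site at 17997 bp had a −log10 p of 374, 428 and 312 against 339, 287 and 316, which overlap (adjusted p = 0.344).

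*Nup93*, which encodes a scaffold protein of the nuclear pore, had a pair of sites at its start that differed in opposite directions, neither called by rank. At 83 bp from the TSS the fold was 18.1, 18.3 and 20.1 in GR-con and 20.9, 22.0 and 21.3 in GR-KO libraries, higher in every GR-KO library (adjusted p = 0.348 by fold and 0.358 by −log10 p). At 580 bp it was 5.69, 6.17 and 5.83 against 3.59, 4.54 and 4.06, lower in every GR-KO library (adjusted p = 0.337 by fold and 0.0652 by −log10 p). The coverage of the second had a ratio of 0.679 and was called lower by both scalings (adjusted p = 0.00462 and 0.0184), and that of the first was called higher by the median alone (adjusted p = 0.0429, against 0.491 by the lowest background). The call of the second site was lost without GR-con 2 or GR-KO 1 by the lowest background (adjusted p = 0.0764 and 0.0802) and without GR-con 1, GR-con 2 or GR-KO 1 by the median (adjusted p from 0.0532 to 0.121), and that of the first in each such fit but the one without GR-con 3. The second site lies within the wide peak of the first: where a library's value was its strongest covering peak, its difference turned to 0.295 by fold and 0.256 by −log10 p.

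Other genes listed under zinc handling were read off the same fits. They were *Mtf1*, *Slc30a1* to *Slc30a10* of the zinc exporter family and *Slc39a1* to *Slc39a14* of the zinc importer family. These families were taken whole, whichever metal a member carries, and gave 25 genes with 408 sites in or within 50 kb of them. By rank of fold 0 were called lower and 0 higher from limma, against 0.127% and 0.0609% of all sites, and at an unadjusted p under 0.05 there were 19 (4.66%, against 6.02%) and 30 (7.35%, against 6.12%). By rank of −log10 p 3 were lower (0.735%, against 0.835% of all sites) and 2 higher (0.490%, against 0.760%). Of the 5, the one nearest its gene's TSS lay 9117 bp from it. The lower sites were near *Slc39a3* and *Slc39a4*, where GR-KO libraries lacked the peak, and *Slc39a5*, and the higher ones near *Slc30a1* and *Slc39a2*. Each of the 5 calls was lost without GR-con 1 and without GR-con 2 (adjusted p from 0.0693 to 0.203).

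At the TSS of *Mtf1*, the factor that binds the metal response element, the fold was 10.6, 11.0 and 9.85 in GR-con and 10.1, 10.4 and 11.2 in GR-KO libraries, with overlap (score difference 0.028, standard error 0.0659, limma adjusted p = 0.922). At the TSS of *Slc30a1*, a zinc exporter that MTF1 induces, the fold was 17.6, 14.8 and 13.6 against 17.8, 17.2 and 16.4, also with overlap (score difference 0.17, standard error 0.0821, adjusted p = 0.452). A site 42730 bp from the *Slc30a1* TSS was called higher, with a −log10 p of 128, 125 and 109 against 217, 217 and 167 (score difference 0.35, standard error 0.0606, adjusted p = 0.00438). That call was lost without GR-con 1, GR-con 2, GR-con 3 or GR-KO 2 (adjusted p = 0.0724, 0.0777, 0.0681 and 0.0591).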

How the data were processed

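ATAC-seq had been carried out on sorted nuclei of V1 astrocytes, 3 libraries per condition. The authors ran version 2.2.0 of ENCODE's pipeline for ATAC-seq, with a p threshold of 0.01 for peaks, and deposited for each library a list of MACS2 peaks on mm10 (named as the build in the submitters' processing notes), called on that library alone. Each deposited peak holds a fold, the ratio of summit coverage to local background, and the −log10 of its p-value and q-value. Regions can hold several summits. No read counts were used, so the edgeR test of the study was not repeated and depth is not known beyond the solved coverage.

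Sites, each a summit with 200 bp on either side, were picked from the strongest rank downwards, without overlap. A library's value was that of its strongest peak with a summit in the site, and sites with none were tied lowest. Ranks by fold and by −log10 p became normal scores, which limma 3.58.1 compared (R 4.3.3, trend, no block, two-sided, Benjamini-Hochberg over all 160877 sites, adjusted p under 0.05). Scaled coverage and background were log2 values at the 99772 sites with a peak in all 6 libraries. Steps were tested on simulated data. Genes are from GENCODE vM21, and motifs were searched with pysam 0.24.0 in Python 3.11.15. For 1 site, 3 libraries per group allow an exact permutation p of 0.1 at the least.

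The members, gene lists and tests were chosen with earlier results of these data known. Sites were named where they lay nearest a metallothionein TSS, had an unadjusted p under 0.05, had a peak in all libraries of one condition alone or held the GR palindrome; sites 463, 719, 1077, 2681, 4241 and 10909 bp from a metallothionein TSS, the site 245 bp from the *Bbs2* TSS and the *Mt3* and *Nup93* sites' coverage values were added after their values were seen. Alternatives were a covering peak of over 200 bp, lists cut to equal lengths or at a q-value of 0.01, sites in at least 3 or all 6 libraries, log values, 2 scalings of coverage, no trend, a replicate block, an unadjusted p, windows of 20 and 100 kb and leaving out each library; the scaled local background, its fit at sites above the lowest value and the fits of scaled values without each library were chosen after seeing the data.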

Additional observations from a re-analysis of the deposited data

How the results depend on the processing

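By rank of fold, no site was called lower or higher in any fit of ranks; there were 2 lower and 7 higher at an unadjusted p under 0.05, 4 lower and 1 higher by coverage scaled by the median, 6 lower by coverage scaled by the lowest background and 2 lower by the scaled local background. By rank of −log10 p, the 1 lower site became 7 (with 4 higher) at an unadjusted p, 2 with sites in at least 3 libraries, 3 with sites in all 6, 3 on the log scale, 4 (with 1 higher), 6 and 2 by the same 3 scalings, 0 with the strongest covering peak, 0 with the replicate block and 0 to 0 without each library in turn. The site 580 bp upstream of *Nup93* reversed with the strongest covering peak, to 0.295 by fold and 0.256 by −log10 p. The difference in peaks of the cluster, 7.33 per library, was 11.7 within 100 kb and 3.00 where the nearest TSS of any gene had to be a metallothionein's. Sites with a peak in GR-con libraries alone numbered 1 to 3 when each library was left out: 3 without GR-con 1, 3 without GR-KO 1 and 2 without GR-KO 3. Of the zinc-handling sites by −log10 p, 3 lower and 2 higher became 1 and 0 within 20 kb; 1 was lower with the replicate block. Without each library in turn, 0 to 2 were lower and 0 to 3 higher: 0 and 0 without GR-con 1 or GR-con 2, 1 and 0 without GR-con 3, 2 and 3 without GR-KO 1, 1 and 1 without GR-KO 2, and 1 and 3 without GR-KO 3. The cause was not tested. With each library left out (chosen after seeing the data), coverage called 2 to 6 sites lower by the lowest background, and 1 to 5 lower and 0 to 1 higher by the median. In the same fits the local background called 0 to 8 lower. Its fit at sites above the lowest background called 11 lower with all 6 libraries and was not refitted with a library left out. All other counts stayed within 1.5 times. Of the named sites by −log10 p, the one 10403 bp downstream of *Mt1* was called in 5 of 14 alternatives, those 3087 bp downstream of *Mt4* and 580 bp upstream of *Nup93* in 2 of 14 each, and that 1134 bp upstream of *Mt2* in 2 of 12; no named site was called by fold. The 1 site called without the variance trend was the one upstream of *Mt2*, not the one downstream of *Mt1*.

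Scores of libraries with the same number did not deviate together (r of 0.030, −0.005 and 0.025 by fold, across sites), so the numbers do not pair the samples; the block moved the −log10 p call 10403 bp downstream of *Mt1* to an adjusted p of 0.0536. The lists state no read depth beyond what the solved coverage and background show, each condition has 3 libraries, and a peak missing from a list is not an absence of open chromatin.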
